A study of Mus musculus with 20 samples.

Results

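Hba-x, Hbb-bh1, Hbb-y and Ahsp are the embryonic globin genes of the mouse and the gene of a chaperone for alpha globin, 4 genes taken by name. In the platform's annotation, 3 of them had a probe set that carried their symbol and no other, with 7 such probe sets in all. The series as a whole had 18193 genes with a probe set of this kind. Ahsp is not analysed here. The series holds 20 Affymetrix arrays with 1 label each, in 4 groups of 5, hybridized with RNA of bone marrow cells of adult C57/Bl6 mice aged 8 to 10 weeks, labelled as VE-cadherin+ endothelial cells. The groups were non-irradiated mice, and mice taken 6 hours, 24 hours and 14 days after total body irradiation with 5 Gy. The treatment protocol field of the non-irradiated samples also names the 5 Gy irradiation, against their titles and their treatment label, from which the group was taken. No transgene or other agent is named for any group. Each array is labelled as a biological replicate. Whether its RNA came from a single animal or a pool is not stated, so p-values measure the spread between these samples.

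Haemoglobin is built from alpha-like and beta-like globin chains, and mice express different genes of both families at different stages. Hba-x encodes the zeta chain, the alpha-like globin of the primitive red cells that form in the yolk sac. Hbb-y and Hbb-bh1 encode the beta-like chains of the same cells. In the adult marrow red cell precursors express the adult genes, and repressors such as Bcl11a and Sox6 hold the embryonic beta-like genes down. Of the adult genes Hba-a1 and Hba-a2 (alpha) and Hbb-b2 (beta), named as in the platform's annotation, had probe sets that carried their symbol and no other. Whether these also bind transcripts of other adult globin genes was not tested. Ahsp, the remaining gene, encodes a protein that binds free alpha chains until they are paired. In the reference gene table Hba-x lies on chromosome 11 ahead of the adult alpha genes, and Hbb-bh1 and Hbb-y lie on chromosome 7, beyond the adult beta genes Hbb-bt and Hbb-bs.

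Promoters are shown for Hba-x and Hbb-y, the 2 of the 4 genes that the promoter table held. It had no entry for Hbb-bh1 or Ahsp. Each sequence is the 250 bases before the annotated start in RefSeq (GRCm38.p6), 5′ to 3′ on the strand of the gene, and the adult alpha gene Hba-a2 is given for comparison. Capitals mark matches, on either strand, to a GATA motif (AGATAA or TGATAA), to CACCC or CCAAT, and to a TATA-like motif (TATAAA or CATAAA).
Hba-x, chr11:32276350-32276599, plus strand: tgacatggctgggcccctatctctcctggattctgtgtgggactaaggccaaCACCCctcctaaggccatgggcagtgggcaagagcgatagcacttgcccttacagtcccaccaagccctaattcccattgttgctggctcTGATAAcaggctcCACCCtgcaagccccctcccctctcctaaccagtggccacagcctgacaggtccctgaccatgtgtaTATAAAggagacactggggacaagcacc
Hbb-y, chr7:103853208-103853457, minus strand: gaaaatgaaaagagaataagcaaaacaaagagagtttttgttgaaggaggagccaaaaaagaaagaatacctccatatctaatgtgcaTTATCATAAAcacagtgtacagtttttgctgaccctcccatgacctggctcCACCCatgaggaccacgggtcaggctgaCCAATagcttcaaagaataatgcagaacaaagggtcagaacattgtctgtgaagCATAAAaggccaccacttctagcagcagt
Hba-a2, chr11:32296242-32296491, plus strand: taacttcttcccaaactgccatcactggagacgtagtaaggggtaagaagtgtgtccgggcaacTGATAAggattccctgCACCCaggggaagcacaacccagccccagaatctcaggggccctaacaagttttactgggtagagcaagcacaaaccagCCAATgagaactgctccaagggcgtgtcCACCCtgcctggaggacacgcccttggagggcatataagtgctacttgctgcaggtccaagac

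Counted from the start, with base -1 just before it, Hba-x held TGATAA from base -108 to -103, CACCC from -198 to -194 and from -95 to -91, and TATAAA from -28 to -23. Hbb-y held TGATAA on the opposite strand from -162 to -157, CACCC from -111 to -107, CCAAT from -83 to -79, and CATAAA from -29 to -24. A further CATAAA of Hbb-y, from -158 to -153, shares bases with its GATA match. Hba-a2 held the GATA motif, CACCC and CCAAT, and no TATA-like match by these letters. Its sequence does hold TATAAG close to the start, which was not among the letters searched. The lack of a match is therefore no lack of a TATA motif. Of 32851 promoter windows of the same length in the table, 16.6% held the GATA motif, 52.0% CACCC, 33.8% CCAAT and 20.9% the TATA-like motif. By the letters searched, the GATA, CACCC and TATA-like motifs stood together in 1.91% of them, Hba-x and Hbb-y included. A match describes the letters and is no evidence of a bound factor.

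The embryonic genes were dim, so their signals were read against the background of each array, the 95th percentile among 27 control probe sets that target bacterial genes. That background lay between 17.5 and 51.5 over the arrays, with group means (± SD, n = 5) of 31.4 ± 8.01 before irradiation, 41.3 ± 8.22 and 26.6 ± 3.90 at 6 and 24 hours, and 23.1 ± 6.30 at day 14. By mean log2 signal over all arrays Hba-x stood at the 6th percentile of all genes, Hbb-y at the 11.5th and Hbb-bh1 at the 20.1st. The number of arrays limits the precision. Signals are those of the deposited table, and log2 changes are of log2(signal + 1), given ± SE, which understates changes of dim genes. The adjusted p-values are limma's, taken over all genes unless another test is named.

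Hba-x, the zeta globin gene, was above background at day 14 and at no other time. Its only probe set, 1448716_at, read 4.69, 8.29, 6.37, 2.77 and 4.63 on the 5 non-irradiated arrays. At 6 hours it read 3.62, 3.62, 2.17, 6.24 and 4.51. At 24 hours it read 2.60, 3.36, 1.78, 2.75 and 2.50. These 15 values all lay under the background of their array, so they have no order among themselves. At day 14 the signals were 41.4, 94.98, 41.2, 49.5 and 63.2, each above the background of its array and each above all 15 others.

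Non-irradiated arrays averaged 5.35 ± 2.08 for Hba-x and day 14 arrays 58.1 ± 22.5 (SD, n = 5). With the non-irradiated arrays at background, the gene was at least 1.78-fold higher at day 14. The fitted log2 change of 3.21 ± 0.44 (limma adjusted p = 1.01e-05) is measured against signals under background and is no exact size. Against 24 hours Hba-x was at least 2.05-fold higher (limma adjusted p of the fitted change 6.61e-08). These p-values belong to the fitted changes, and the bounds themselves were not tested. The other pairs of groups, 6 hours and 24 hours against non-irradiated mice and 24 hours against 6 hours, were at background on both sides, so no fold is given (adjusted p = 0.664, 0.211 and 0.507). Over the 4 groups the adjusted p of the F test was 7.88e-08, a test that 55.1% of all genes passed.

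A pattern of this kind was rare by the same measure. Of 18193 genes, 1 was at or under background on all 15 arrays of the other groups and above it on all 5 day 14 arrays (0.00550%), and it was Hba-x. The count was made after its values had been seen. It was again 1, and again Hba-x, with the background set to the highest or to the median bacterial probe set. All 5 day 14 arrays lay above all 15 others for 6.02% of genes, above the non-irradiated arrays for 11.4% and above the 24-hour arrays for 15.7%.

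**Figure D1:**
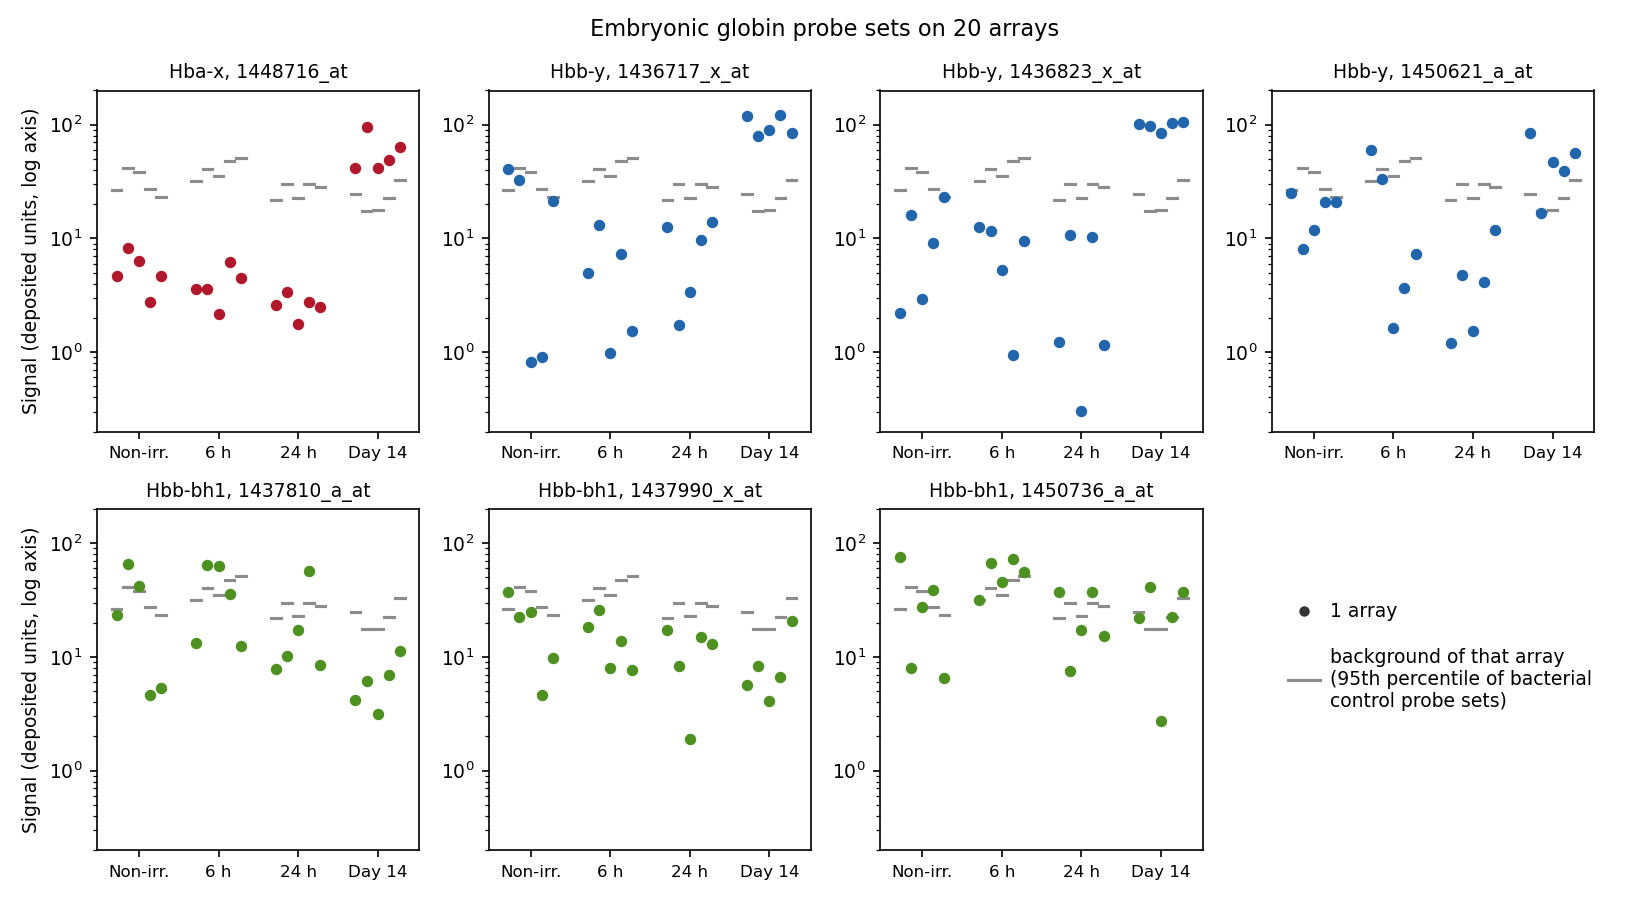
Signal (deposited units, log axis) of the 7 probe sets of Hba-x, Hbb-y and Hbb-bh1 on each of the 20 arrays, by group, with a grey bar for the background of that array. Hba-x reads 41.2 to 94.98 at day 14 and at most 8.29 elsewhere. Both Hbb-y probe sets whose names end in x_at stand above background on all 5 day 14 arrays. Hbb-bh1 by 1450736_a_at is above background on 2, 5, 2 and 2 arrays of the groups in order of time, and its other probe sets lie mostly under it.

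Hbb-y, the epsilon-y beta-like globin gene, was higher at day 14 on the probe sets 1436823_x_at and 1436717_x_at, and less clearly so on the third, 1450621_a_at. The suffix x marks probe sets whose probes may also bind transcripts of other genes, and the part of such binding was not tested. The probe set 1436823_x_at read 2.21, 16.1, 2.94, 9.19 and 23.3 on the non-irradiated arrays. It read 12.6, 11.5, 5.30, 0.95 and 9.48 at 6 hours. It read 1.22, 10.6, 0.30, 10.3 and 1.15 at 24 hours. At day 14 it read 101, 98.3, 84.2, 104 and 106. The day 14 arrays did not overlap any other array, and 1 of the 15 others, non-irradiated replicate 5, was above its background by less than 1 unit of signal.

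The probe set 1436717_x_at gave the same picture with a wider spread before irradiation. It read 40.4, 32.4, 0.81, 0.91 and 21.2 on the non-irradiated arrays, of which replicate 1 was above background. At 6 hours it lay between 0.98 and 13.2 and at 24 hours between 1.73 and 13.8. At day 14 it read 120, 79.9, 90.4, 122 and 85.0, all above background and above the other 15 arrays. Against non-irradiated mice the log2 change was 3.49 ± 0.70 for 1436823_x_at (adjusted p over all probe sets 0.000623) and 3.29 ± 0.81 for 1436717_x_at (0.00381). In each case 4 of the 5 non-irradiated arrays were at background, so these are no exact sizes. Of all probe sets with a single symbol 8.24% were called higher in this comparison, and 13.5% at day 14 against 24 hours.

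The probe set 1450621_a_at, whose mean log2 signal over all arrays was the highest of the 3 and which stands for Hbb-y in the comparison over genes, was more scattered. It read 25.3, 8.09, 11.9, 21.0 and 21.1 on the non-irradiated arrays, all at background. At 6 hours the values were 60.0, 33.6, 1.63, 3.69 and 7.30, with replicate 1 alone above background. At 24 hours they were 1.22, 4.77, 1.53, 4.15 and 11.9. At day 14 they were 85.4, 16.8, 47.1, 39.2 and 56.9, with 4 of 5 arrays above background and replicate 2 inside the range of the non-irradiated group. Its log2 change at day 14 did not pass the test against non-irradiated mice (1.37 ± 0.72; adjusted p = 0.177). With arrays centred on their medians the same value was 2.27 (adjusted p = 0.0106), and with quantile normalization it was 2.39 (0.0221).

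All 3 probe sets of Hbb-y passed the test of day 14 against 24 hours, where every 24-hour array was at background. The gene was at least 3.63-fold higher by 1436823_x_at (adjusted p over all probe sets 6.27e-06), at least 3.62-fold by 1436717_x_at (0.000681) and at least 1.62-fold by 1450621_a_at (0.000871). The p-values belong to the fitted log2 changes, and the bounds themselves were not tested. By the last probe set the adjusted p over genes was 0.000717, and that of the F test over the 4 groups was 0.00395. At 24 hours against non-irradiated mice this probe set was at background on both sides, with an adjusted p of 0.0502. Without non-irradiated replicate 2 that p was 0.0431, and without 24-hour replicate 5 it was 0.0263.

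Hbb-bh1, the other embryonic beta-like gene, passed none of the 5 comparisons. Its brightest probe set, 1450736_a_at, read 75.1, 8.07, 27.5, 38.6 and 6.50 on the non-irradiated arrays. At 6 hours it read 31.8, 67.6, 45.4, 73.3 and 55.8, and these 5 arrays were above background, replicate 1 by under 0.1 units. At 24 hours it read 37.6, 7.56, 17.4, 37.3 and 15.1, and at day 14 it read 22.0, 41.2, 2.73, 22.6 and 37.0. The groups overlapped throughout. The log2 change against non-irradiated mice was 1.25 ± 0.68 at 6 hours (adjusted p = 0.191), -0.13 ± 0.68 at 24 hours (0.915) and -0.17 ± 0.68 at day 14 (0.884). The sign at day 14 turned with the scaling, to 0.73 with arrays centred and 0.79 with quantile normalization. The other probe sets of the gene did not follow it: 1437810_a_at was above background on 2, 2, 1 and 0 arrays of the groups in order of time, and 1437990_x_at on 1, 0, 0 and 0. At day 14 these read at most 11.3 and 20.6.

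Set against all genes, 1 of the 3 measured embryonic genes (Hba-x) was called higher at day 14 against non-irradiated mice, where 22.4% of genes were called, 9.47% higher and 13.0% lower. None of the 3 was called lower. At day 14 against 24 hours 2 of 3 were called higher (Hba-x and Hbb-y), beside 36.9% of genes called, 15.2% higher and 21.7% lower. All comparisons with non-irradiated mice share those 5 arrays. At 6 hours and at 24 hours against non-irradiated mice 0 of 3 were called by limma. The lowest unadjusted p was 0.0775 at 6 hours (Hbb-bh1) and 0.0148 at 24 hours (Hbb-y). Of all genes 27.4% were called at 6 hours, 12.9% higher and 14.5% lower, and 29.5% at 24 hours, 15.7% higher and 13.8% lower. Between 24 and 6 hours 0 of 3 were called (lowest unadjusted p 0.0531, Hbb-bh1), beside 23.8% of genes, 13.7% higher and 10.1% lower. The split of calls depends on the scaling: with arrays centred on their medians 8210 genes were higher and 461 lower at day 14 against non-irradiated mice, in place of 1723 and 2359, and 4971 and 1687 against 24 hours in place of 2765 and 3944. Quantile normalization gave 1784 and 1136, and 2840 and 2856. Centring raised the median change of all genes by 0.25 at 6 hours, 0.38 at 24 hours and 0.90 at day 14, all on the log2 scale against non-irradiated mice.

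The adult globins Hba-a2 and Hbb-b2 fell at 6 and 24 hours, and at day 14 Hba-a2 was called higher and Hbb-b2 was not called. With arrays centred on their medians the fall of Hba-a2 at 6 hours kept its call (-0.80; adjusted p = 3.56e-06), while that at 24 hours (-0.22; 0.142) and those of Hbb-b2 at 6 hours (-0.51; 0.0695) and 24 hours (-0.45; 0.102) lost theirs. Centring also turned the day 14 value of Hbb-b2 to 0.83 (0.0017). In order of time the mean signal of Hba-a2 was 4849 ± 315, 2346 ± 266, 3193 ± 215 and 6036 ± 502 (SD, n = 5). Its log2 change was -1.05 ± 0.091 at 6 hours (adjusted p = 1.45e-09), -0.60 ± 0.091 at 24 hours (8.99e-06) and 0.31 ± 0.091 at day 14 (0.0146). Hbb-b2 on its brighter probe set went from 15922 ± 3631 over 9341 ± 2157 and 9106 ± 2934 to 14822 ± 1208. It fell at 6 hours (-0.76 ± 0.18, adjusted p = 0.00189) and at 24 hours (-0.84 ± 0.18, 0.000694), and at day 14 read -0.073 ± 0.18 (0.804). The dimmer Hbb-b2 probe set, 1427866_x_at, averaged 84.0 ± 20.6, 42.8 ± 24.6, 31.8 ± 9.66 and 129 ± 31.2 in order of time. By it the log2 change was -1.25 at 6 hours, -1.41 at 24 hours and 0.61 at day 14 (limma adjusted p over all probe sets 0.0648, 0.0338 and 0.396). The single-symbol probe set of Hba-a1, a near-identical copy of Hba-a2, was above background on 3 of the 20 arrays, and none of the comparisons called it. Probe sets that carry several adult globin symbols were left out, since they name no single gene.

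The embryonic signal was also set against the adult globins inside each array, where the scaling of the array cancels. Probe sets differ in how strongly they bind, so only the change of this difference between groups can be read. The log2 signal of Hba-x minus that of Hba-a2 was -9.64 ± 0.58 (SD, n = 5) in non-irradiated mice and -6.75 ± 0.47 at day 14, and the groups did not overlap. The change of 2.89 had an exact two-sided permutation p of 0.0079, the smallest that 5 against 5 arrays can give (adjusted p = 0.0185 over 7 tests, 1 for each embryonic probe set). The non-irradiated Hba-x signals were all under background, so 2.89 is no size. With each embryonic signal under background raised to the background of its array, the change was 0.51 and did not pass (adjusted p = 0.287, exact permutation test). All differences from Hbb-b2 use its brighter probe set alone. For Hbb-y minus Hbb-b2 the change was 3.56 by 1436823_x_at and 3.36 by 1436717_x_at (both adjusted p = 0.0185, exact permutation tests), and 1.72 and 1.60 with signals raised to background (both 0.0278). By 1450621_a_at it was 1.44 (adjusted p = 0.0278 by the exact permutation test), and without 8 of the 10 arrays, left out in turn, adjusted p was 0.0556. Raised to background it was 0.57 (0.287). The 3 Hbb-bh1 probe sets changed by -1.40, -0.88 and -0.097 against Hbb-b2, none of which passed (adjusted p = 0.211, 0.333 and 0.905, exact permutation tests). This comparison and its alternatives were added after the values had been seen.

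**Figure D2:**
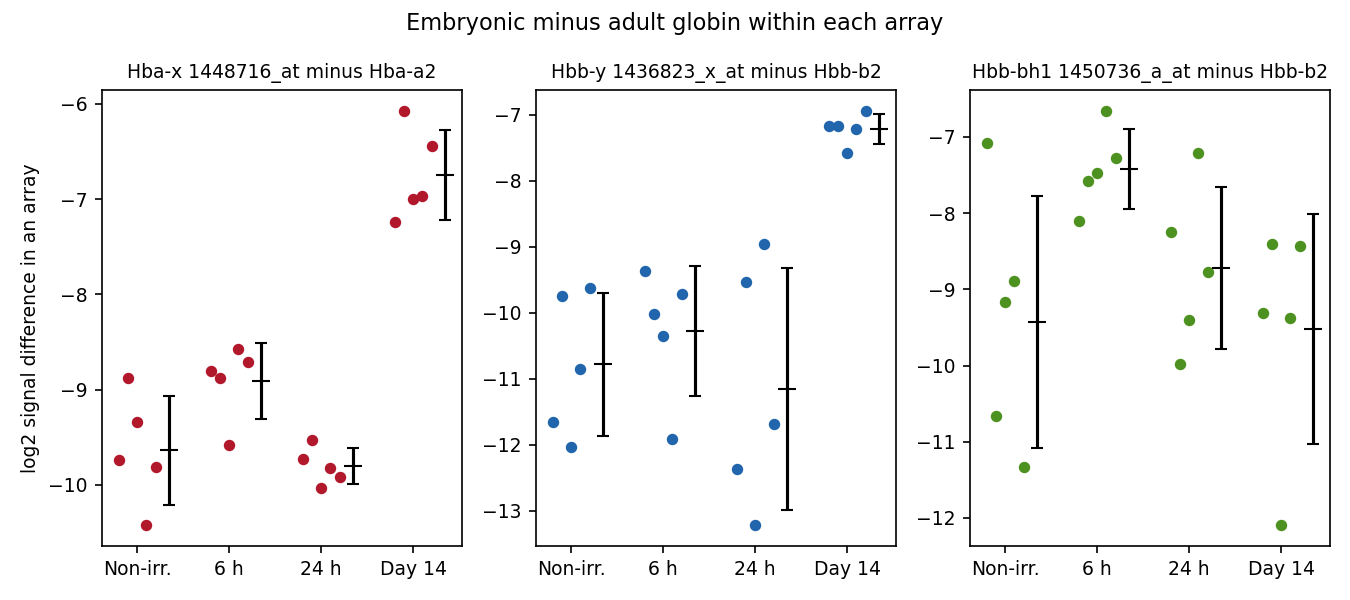
Log2 signal of an embryonic globin probe set minus that of an adult globin probe set on the same array, by group; points are arrays and black bars the mean ± SD (n = 5). The day 14 arrays stand above all others for Hba-x minus Hba-a2 and for Hbb-y (1436823_x_at) minus Hbb-b2, and overlap the non-irradiated and 24-hour arrays, and lie below the 6-hour arrays, for Hbb-bh1 (1450736_a_at) minus Hbb-b2. Differences that rest on signals under background are no exact sizes.

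Red cell precursor genes moved in the same arrays. Of 27 measured erythroid markers 0 rose and 25 fell at 6 hours (median log2 change -2.79, beside -0.022 over all genes), and 27 fell at 24 hours (median -4.17, all genes -0.073). At day 14, 10 rose and 0 fell against non-irradiated mice (median 0.56, all genes -0.18), and 25 rose with arrays centred on their medians. Over all genes 14.5% fell at 6 hours and 13.8% at 24 hours, and 9.47% rose and 13.0% fell at day 14. With centring 8210 of 18193 genes rose and 461 fell at day 14. The summed signal of these 27 genes was 116479 to 122302 over the non-irradiated arrays, 30508 to 37127 at 6 hours, 15804 to 16857 at 24 hours and 132672 to 157212 at day 14. Each of the 27 was above background on at least 1 array of the non-irradiated and of the day 14 group, while 1 was at background on all arrays at 6 hours and 2 at 24 hours. Alas2, the first enzyme of haem synthesis in red cells, rose from 2009 ± 182 to 4775 ± 404 at day 14 (log2 change 1.25 ± 0.13; adjusted p = 1.28e-07). The erythroid gene Trim10 rose by 1.15 ± 0.39 (0.0334). Not all of the markers moved this way, though none was called lower at day 14. Kel read 3220 ± 153 in non-irradiated mice and 2581 ± 91.1 at day 14, and Hemgn 11940 ± 2550 and 9833 ± 134. The part of the erythroid signal in the day 14 values of the embryonic genes was not tested. In bulk RNA fewer cells of a type and less RNA per cell cannot be told apart.

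The summed signal of the endothelial markers was lowest at day 14. Cdh5, the gene of VE-cadherin, read 3186 ± 494 in non-irradiated mice, 8954 ± 1260 at 6 hours, 4891 ± 188 at 24 hours and 1293 ± 270 at day 14, always above background. Of 20 endothelial markers 1 rose and 12 fell at day 14 against non-irradiated mice (median -0.65; 0.25 with arrays centred, where 7 rose and 5 fell), and their summed signal was 13924 to 15691 there, against 23584 to 25611 in non-irradiated mice, 74178 to 81703 at 6 hours and 37967 to 40829 at 24 hours. Single markers differed from the sum: Plvap, a gene of endothelial fenestrae, read 453 ± 101 in non-irradiated mice and 693 ± 103 at day 14. Of 14 pan-leukocyte markers 1 rose and 6 fell at day 14 (median -0.24; 0.66 with arrays centred, where 12 rose and 0 fell). Their summed signal was 60944 to 69605 in non-irradiated mice, 56930 to 64624 and 58050 to 65462 at 6 and 24 hours, and 50497 to 54345 at day 14. Beside these 2 lists, 9.47% of all genes rose and 13.0% fell at day 14 (median -0.18). With arrays centred 8210 of 18193 genes rose and 461 fell. The controls of the arrays also differed by group. In order of time Gapdh read higher by its 3′ than its 5′ control probes by 1.33 ± 0.040, 1.58 ± 0.29, 0.77 ± 0.056 and 0.89 ± 0.12 (log2), and the hybridization controls averaged 12.77 ± 0.084, 12.84 ± 0.16, 12.17 ± 0.16 and 12.14 ± 0.16 on the log2 scale. The part of the markers and controls in the day 14 signal of the embryonic genes was not tested.

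**Figure D3:**
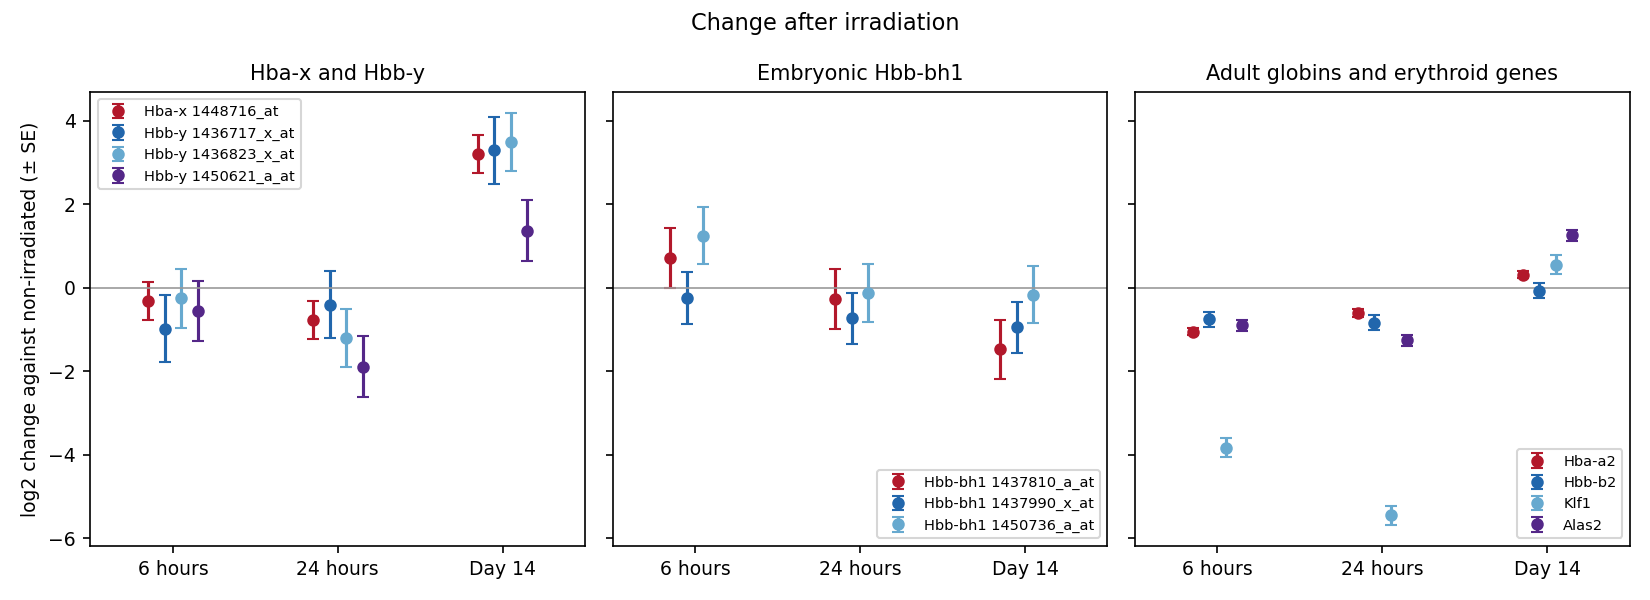
Log2 change against non-irradiated mice at 6 hours, 24 hours and day 14 (points, with bars of ± 1 SE from limma) for the probe sets of Hba-x and Hbb-y, those of Hbb-bh1, and the adult globins Hba-a2 and Hbb-b2 with the erythroid genes Klf1 and Alas2. Hba-x and the Hbb-y probe sets with the suffix x lie between 3.21 and 3.49 at day 14, and their values at 6 and 24 hours compare signals that are mostly at background.

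The counts of genes that act on globin transcription depended on the scaling. Of 33 measured regulators 3 rose and 15 fell at 6 hours, 3 rose and 15 fell at 24 hours, and 10 rose and 4 fell at day 14 (median 0.055, all genes -0.18; -0.063 with quantile normalization and 0.95 with arrays centred). With arrays centred on their medians 7 rose and 6 fell at 6 hours, 9 rose and 10 fell at 24 hours, and 27 rose and 1 fell at day 14. Without centring, 12.9% of all genes rose and 14.5% fell at 6 hours, 15.7% and 13.8% at 24 hours, and 9.47% and 13.0% at day 14. With centring, 3531 of 18193 genes rose and 1617 fell at 6 hours, 4950 and 1139 at 24 hours, and 8210 and 461 at day 14. Klf1, which switches on the adult beta globin gene, read 5693 ± 288, 430 ± 174, 134 ± 39.2 and 8353 ± 676 in order of time. Its fall was -3.83 ± 0.23 at 6 hours (adjusted p = 1.73e-12) and -5.46 ± 0.23 at 24 hours (1.95e-15), and at day 14 it read 0.55 ± 0.23 (0.0853). Gata1, the factor of erythroid genes that binds GATA motifs, fell to -3.05 ± 0.21 at 24 hours (1.52e-11) and rose by 0.66 ± 0.21 at day 14 (0.0253).

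None of Sox6, Bcl11a, Zbtb7a and Myb, which are known for holding embryonic or fetal beta-like globins down, was called lower at day 14. Sox6 read 705 ± 25.2 in non-irradiated mice and 1264 ± 98.2 at day 14, a rise of 0.84 ± 0.28 (adjusted p = 0.0343). At 6 and 24 hours Sox6 was at 61.4 ± 28.6 and 40.1 ± 14.7, with 3 and 4 of 5 arrays above background. Bcl11a read 2363 ± 609 and 2288 ± 161 in non-irradiated mice and at day 14 (-0.0070 ± 0.36; 0.991), after a fall of 2.78 on the log2 scale at 24 hours (8.35e-07). With arrays centred on their medians Bcl11a read 0.89 at day 14 (0.0425), and with quantile normalization -0.20. Zbtb7a read 0.24 ± 0.14 (0.209) and Myb -0.27 ± 0.13 (0.129) at day 14, with Myb at 0.63 (0.00161) and Zbtb7a at 1.14 (5.02e-07) when centred. A p that misses the threshold does not show that levels were equal.

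Other regulators changed at day 14 in both directions. Klf2, known from embryonic globin expression and from flow responses of endothelium, fell by 1.44 on the log2 scale (adjusted p = 9.10e-09). Centring arrays on their medians raises day 14 values by 0.90, which makes this fall smaller. Igf2bp3, an RNA-binding protein of fetal tissues, fell by 1.69 (0.000593), or by 0.79 with arrays centred (0.0509). Mbd3, a subunit of a chromatin-remodelling repressor complex, rose by 1.08 ± 0.26 (0.00422). Lin28b, a regulator of fetal programmes in blood cells, was at background on all 20 arrays.

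**Figure D4:**
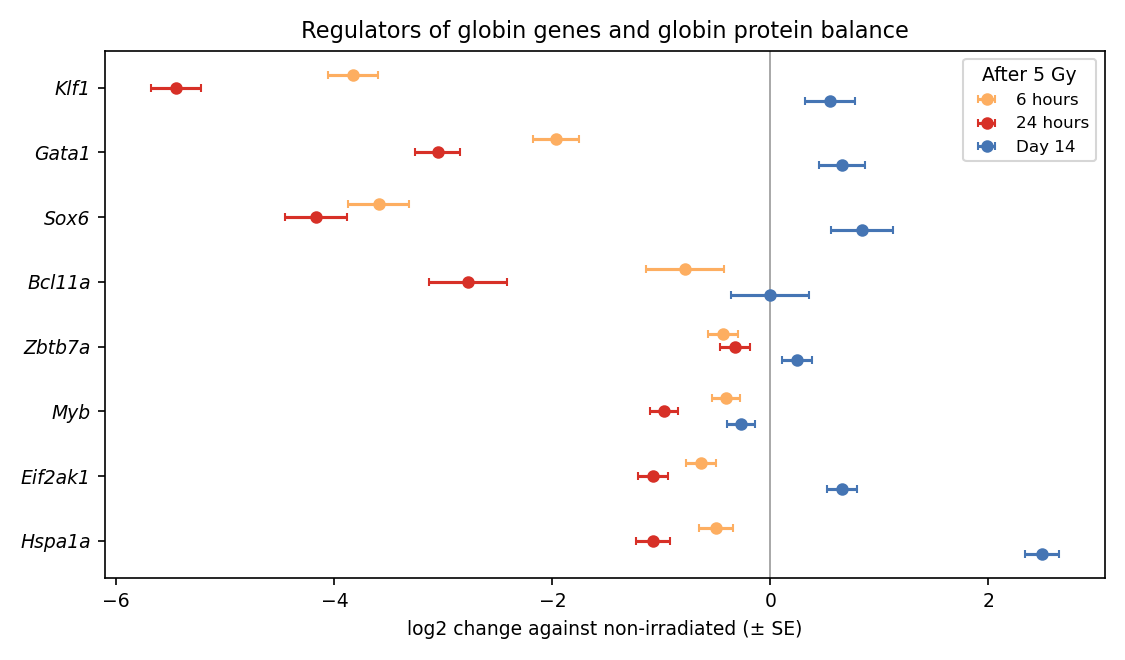
Log2 change against non-irradiated mice (points, with bars of ± 1 SE from limma) of 8 regulators of globin genes and of globin protein balance at 6 hours, 24 hours and day 14. Klf1, Gata1, Sox6 and Bcl11a lie between -5.46 and -2.78 at 24 hours and between -0.0070 and 0.84 at day 14, and Hspa1a stands at 2.49 at day 14.

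Genes that keep globin chains, haem and translation in balance rose more often than they fell at day 14. Of 16 measured genes 4 rose and 5 fell at 6 hours, 2 rose and 8 fell at 24 hours, and 9 rose and 2 fell at day 14 (median 0.47, all genes -0.18). The shares of all genes without centring are those given for the regulators. With arrays centred the counts were 4 and 3, 3 and 5, and 15 and 0. Beside these stand the centred counts over all 18193 genes, 3531 and 1617, 4950 and 1139, and 8210 and 461. Hspa1a, the gene of the inducible chaperone HSP70, read 1073 ± 246 in non-irradiated mice, 746 ± 67.2 at 6 hours, 505 ± 106 at 24 hours and 5914 ± 185 at day 14. It rose by 2.49 ± 0.16 at day 14 (adjusted p = 1.94e-11), and its day 14 arrays did not overlap the others. Eif2ak1, the kinase that slows translation when haem is short, rose by 0.66 ± 0.14 at day 14 (0.00135), and Fech, which inserts iron into haem, by 0.93 ± 0.15 (5.09e-05). Hmox1, which breaks haem down, was higher at each time, at 1.41 ± 0.17, 2.70 ± 0.17 and 1.26 ± 0.17 in order (adjusted p at most 7.46e-06). Prdx2, a peroxide-removing enzyme abundant in red cells, fell by 2.09 at 6 hours (2.12e-11) and by 2.12 at 24 hours (1.25e-11), and read 0.14 ± 0.14 at day 14 (0.52).

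The genes whose log2 signals followed those of the embryonic globins most closely were named by the highest Pearson correlation over the 20 arrays. The arrays share their groups, so these values are descriptions. For Hba-x they were Ndufa12 (r = 0.953), Hspa1a (0.946), Psat1 (0.938), Psma5 (0.921) and Alas2 (0.916). For Hbb-y on 1450621_a_at they were Nsun5 (0.892), Brd7 (0.885), Prmt7 (0.874), C1galt1 (0.841) and Uhmk1 (0.837). For Hbb-bh1 the closest were Hic2 (0.687), Junb (0.684), Hemk1 (0.673), Btg2 (0.663) and Ppp5c (0.653). Of the 20 arrays, Hba-x and Hbb-y were each above background on 5 and Hbb-bh1 on 11. The correlations of each gene thus rest in large part on signals at background. No gene stood on more than 1 of these lists. Of the genes named for Hba-x, Psma5, a proteasome subunit, rose from 2838 to 5770 at day 14 (log2 change 1.03 ± 0.10). Ndufa12, a subunit of respiratory complex I, rose by 0.80 ± 0.097, and Psat1, an enzyme of serine synthesis, by 0.92 ± 0.11. These genes were picked for following Hba-x on the same arrays. Their rise at day 14 therefore comes with the choice and is no separate result.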

How the data were processed

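The authors deposited an intensity for each probe set on each array. The scale is linear and, from the values, a mean trimmed by 2% at both ends comes to 500 on every array. Per the labels' protocols, RNA was amplified and labelled with biotin. Per the submitters' processing notes, Affymetrix Expression Console and Transcriptome Analysis Console were used. The summarization algorithm is not given in the sources used here. Of 45101 probe sets, 34945 carried 1 symbol, 932 several, 9160 were unnamed here and 64 were controls. Symbols came from the platform annotation, and the gene numbers of 34741 single-symbol probe sets matched the reference table (GRCm38.p6). Values were log2 transformed after adding 1. The probe set with the highest mean stood for a gene. Tests across genes used limma 3.58.1 under R 4.3.3 (lmFit, eBayes with an intensity trend, all 20 arrays, two-sided, Benjamini-Hochberg over 18193 genes, called under 0.05), tested on simulated data. Exact permutation tests used scipy 1.17.1. Figures were drawn with matplotlib 3.10.9.

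Named genes were the embryonic and single-symbol adult globins, a fixed set of regulators (Klf1, Gata1, Bcl11a, Zbtb7a, Sox6, Myb, Eif2ak1), up to 3 called members with the largest change per list and time, and the 5 closest genes by correlation among those above the 40th percentile of mean signal. Lin28b, Cdh5, Plvap, Kel and Hemgn were named after their values were seen. The genes and lists were chosen with earlier results of these data known. A fold against a group at background on every array compares the mean log2 signal with the mean log2 background. The labels' replicate numbers did not pair the arrays: deviations of same-numbered arrays of different groups correlated at -0.067 to 0.049 (median 0.001). Alternatives were quantile normalization, median centring, a filter on dim genes, other probe set rules, adding 16, no trend, array weights, 2 groups alone, a replicate block, each array left out, embryonic signals raised to background within arrays, and other background levels.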

Additional observations from a re-analysis of the deposited data

Results flagged for a closer look

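The effect of irradiation on Hba-x differed between the times, by the test of day 14 against 24 hours (log2 difference 3.98; adjusted p = 6.61e-08, limma), with the 24-hour arrays at background. For Hbb-y the same difference was 3.26 (adjusted p = 0.000717). Day 14 replicate 3 stood far below its group on the Hbb-bh1 probe set 1450736_a_at, at a signal of 2.73. It was the single value to stand apart in this way among 28 groups of 5 arrays, and chance marks about 1 in 20.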

How the results depend on the processing

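The call of Hba-x at day 14 held under all alternatives run, at a log2 change of 1.75 to 4.11 against non-irradiated mice and 1.95 to 4.50 against 24 hours. So did that of Hbb-y at day 14 against 24 hours (1.58 to 4.70). With the replicate block Hba-x read 3.21 and Hbb-y 1.37 against non-irradiated mice, and the block changed no call of these genes. Hbb-y at day 14 against non-irradiated mice passed at 2.39 with quantile normalization, 2.27 with median centring, 2.72 with the mean of its probe sets, and 3.29 and 3.49 by its x_at probe sets. Hbb-y at 24 hours passed at -1.81 with array weights and -1.89 with the 2 groups alone, and without single arrays lay between -2.26 and -1.62. Hba-x at 24 hours passed at -0.77 without the intensity trend. For both genes these 24-hour values compare groups at background on both sides, so no fall can be read from them. Hbb-y by 1450621_a_at minus Hbb-b2 read 0.97 when adding 16 (adjusted p = 0.0556) and 1.20 to 1.76 without single arrays. With embryonic signals raised to background it read 0.57, and Hba-x minus Hba-a2 0.51 (both adjusted p = 0.287). The count of calls at day 14 against non-irradiated mice was 8671 with median centring, 6242 with array weights and 6147 with the 2 groups alone. Over every probe set the counts were 9237, 10103 and 8721 against non-irradiated mice in order of time, 7539 at 24 against 6 hours and 12162 at day 14 against 24 hours. Arrays above background numbered 11 for Hbb-bh1 and 5 for Hbb-y, or 7 for Hbb-bh1 against the highest bacterial probe set, and 17 and 12 against the median. Leaving out dim genes removed all 3 embryonic genes. Signals so close to background limit every size given for them.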

Other observations

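Of the 3 measured globins outside the red cell, 1 was called in any comparison with non-irradiated mice. Cygb, the gene of cytoglobin, which is found in fibroblast-like cells of many tissues, rose at 24 hours from 607 ± 160 to 1035 ± 120 (mean signal ± SD, n = 5; log2 change 0.80 ± 0.23, limma adjusted p = 0.0074) and read 0.19 ± 0.23 at day 14 (0.583), or 1.09 with arrays centred on their medians (0.000182). Mb, the gene of myoglobin, read 0.25, -0.074 and -0.36 at the 3 times, and Ngb, that of neuroglobin, 0.38, 0.27 and -0.36. None of these passed, and the day 14 values turned to 0.54 and 0.54 with arrays centred. By its dimmer probe set, 1422420_at, Mb read 1.32 ± 0.54 at 6 hours (limma adjusted p over all probe sets 0.0769). The F test of that probe set over the 4 groups passed (adjusted p = 0.0153).

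Of 10 measured genes that flank the alpha globin locus 1 rose and 5 fell at 6 hours, 2 rose and 5 fell at 24 hours, and 1 rose and 2 fell at day 14 (median 0.0060, all genes -0.18). With arrays centred on their medians 2 rose and 3 fell at 6 hours, 2 and 3 at 24 hours, and 7 and 1 at day 14. The day 14 counts without centring lay near the shares over all genes, 9.47% higher and 13.0% lower. With centring 8210 of 18193 genes rose and 461 fell at day 14. Polr3k, a subunit of RNA polymerase III, rose by 0.92 ± 0.21 at day 14 (adjusted p = 0.00241), while the DNA repair gene Mpg fell by 1.70 on the log2 scale (0.000262). Centring raises both values by 0.90, which makes the fall of Mpg smaller. Pdia2, a protein disulfide isomerase, fell by 3.83 at 6 hours (5.5e-10) and by 2.66 at 24 hours (2.16e-07), and read 0.61 ± 0.31 at day 14 (0.168).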
